A study of Mus musculus with 14 samples.

Results

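Fabp1, Fabp2, Fabp4, Fabp5 and Fabp7, which encode fatty acid binding proteins, and Cd36, which encodes a fatty acid receptor of the cell surface, were followed through mouse liver RNA sequencing. The 6 genes were taken by name from the 24411 genes in the count files. Of the 6, 5 had enough reads to be tested among 9644 genes, and Fabp7 did not. The genes were selected on their read counts in all 4 groups of these same libraries. Their levels and changes are therefore a description, and the adjusted p-values only place each gene among all genes tested.

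The mice were male littermates aged 5 to 7 months. All of them carried floxed Rbbp5 alleles. WT mice were Rbbp5 (flox/flox); Alb-CRE (-/-), and the knockout mice, here called LKO, were Rbbp5 (flox/flox); Alb-CRE (+/-). Rbbp5 encodes a subunit of histone H3 lysine 4 methyltransferases, and the albumin promoter drives Cre in hepatocytes, so other liver cells keep the gene. Mice received an injection into the peritoneum of 500 µl of 3% DMSO in PBS, as vehicle, or of 0.05 mg/kg tunicamycin in the same liquid, between 9 and 10 in the morning. Tunicamycin blocks N-linked glycosylation and stresses the endoplasmic reticulum. Livers were taken 8 h later. The genotype labels of the samples spell the gene RRBP5, and the design text spells it RBBP5.

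Fatty acid binding proteins are small proteins of the cytosol that hold a long-chain fatty acid or a related lipid in a barrel-shaped pocket and carry it between membranes, enzymes and the nucleus. Fabp1 is the abundant form of hepatocytes, Fabp2 is best known from the intestine, Fabp4 from adipocytes, macrophages and some endothelia, Fabp5 from skin and macrophages, and Fabp7 from brain. CD36 takes up long-chain fatty acids and oxidised lipoproteins at the cell surface. Nuclear receptors of the PPAR family, which pair with RXR, are activated by fatty acids and are known to act on several of these genes.

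WT mice gave 3 libraries with vehicle and 3 with tunicamycin, and LKO mice gave 4 of each. The LKO vehicle libraries 3 and 4 were near duplicates and were summed, which left 13 samples and an LKO vehicle group of 3. Reads on genes ranged from 6507018 to 13519421 per library, of which the ribosomal RNA gene Rn45s took 72.5 to 75.5%, so 1704479 to 3551398 reads lay on other genes. The labels do not say that each library came from its own mouse, and p-values measure only the spread between these samples. Rbbp5 itself stood at 4.06, 6.4 and 5.1 CPM (a gene's reads relative to the normalised size of its library) in WT vehicle samples 1 to 3, and at 5.36, 5.02 and 5.7 CPM in WT tunicamycin samples 1 to 3. It stood at 4.14, 1.9 and 2.78 CPM in LKO vehicle samples 1, 2 and 3 with 4, and at 2.79, 3.12, 3.46 and 2.06 CPM in LKO tunicamycin samples 1 to 4. The library labelled LKO vehicle 1 thus lay within the WT vehicle range, and LKO vehicle values below rest partly on it.

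Fabp1 was by far the most abundant of the 6 genes in every sample, and 1 of the 3 WT tunicamycin samples stood apart from the other 2. It stood at 783, 766 and 648 CPM in WT vehicle samples 1 to 3, and at 401, 395 and 737 CPM in WT tunicamycin samples 1 to 3. In LKO vehicle it stood at 436, 441 and 620 CPM in samples 1, 2 and 3 with 4, and in LKO tunicamycin at 327, 397, 491 and 414 CPM in samples 1 to 4. WT tunicamycin 3 was level with the vehicle samples while WT tunicamycin 1 and 2 lay well below them. With vehicle, the highest LKO sample lay just under the lowest WT sample.

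The group means of Fabp1 were 732 ± 73.5 CPM (SD, n = 3) in WT vehicle, 511 ± 196 CPM (n = 3) in WT tunicamycin, 499 ± 104 CPM (n = 3) in LKO vehicle and 407 ± 67.6 CPM (n = 4) in LKO tunicamycin. The log2 fold change of tunicamycin against vehicle was -0.52 ± 0.23 (SE) in WT and -0.29 ± 0.22 in LKO, with Benjamini-Hochberg adjusted p of 0.311 and 0.647 in edgeR's quasi-likelihood test. LKO against WT gave -0.55 ± 0.23 with vehicle and -0.33 ± 0.22 after tunicamycin, with edgeR adjusted p of 0.551 and 0.503. None of these Fabp1 contrasts passed the threshold of 0.05.

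Fabp2 was measured at a low level, with 21 to 123 reads per sample, in a tissue other than the one it is named for. It stood at 9.56, 8.7 and 9.47 CPM in WT vehicle samples 1 to 3, and at 4.81, 3.4 and 12 CPM in WT tunicamycin samples 1 to 3. LKO vehicle samples 1, 2 and 3 with 4 held 4.5, 4.15 and 7.29 CPM, and LKO tunicamycin samples 1 to 4 held 2.93, 3.9, 4.07 and 5.2 CPM. As for Fabp1, WT tunicamycin 3 was apart from the other samples of its group, and here it was the highest of all samples. With vehicle, all LKO samples lay below all WT samples.

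Fabp2 averaged 9.24 ± 0.474 CPM (SD, n = 3) in WT vehicle, 6.74 ± 4.62 CPM (n = 3) in WT tunicamycin, 5.31 ± 1.72 CPM (n = 3) in LKO vehicle and 4.02 ± 0.933 CPM (n = 4) in LKO tunicamycin. For Fabp2, LKO minus WT was -0.77 ± 0.32 (SE, log2) with vehicle and -0.73 ± 0.34 after tunicamycin, with edgeR adjusted p of 0.55 and 0.312. The value after tunicamycin rested on WT tunicamycin 3, since it was -0.03 without that sample, and it was between -0.26 and -0.22 in FPKM. Tunicamycin against vehicle gave -0.46 ± 0.33 in WT and -0.42 ± 0.32 in LKO, with edgeR adjusted p of 0.563 and 0.657. With vehicle, Fabp1 and Fabp2 were the 2 members of the 5 whose LKO samples all lay below the WT samples. Over all genes tested, 7.6% were apart in that direction and 0.0415% passed the test in that comparison in either direction.

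The size of the tunicamycin values of both genes turned on single samples. In LKO, leaving out vehicle 3 with 4 moved Fabp1 from -0.29 to -0.11 and Fabp2 from -0.42 to -0.08. In WT, leaving out tunicamycin 2 moved Fabp1 to -0.36 and Fabp2 to -0.15, and leaving out tunicamycin 1 moved them to -0.37 and -0.25. Without WT tunicamycin 3, in contrast, the WT log2 fold change was -0.88 for Fabp1 and -1.16 for Fabp2, and both then passed, with edgeR adjusted p of 0.0125 and 0.0207. Leaving out that sample also raised the share of all genes called from 0.363% (35 of 9644 genes) to 6.19% (615 of 9941 genes). Stress genes were high in that sample. Hspa5, the chaperone of the endoplasmic reticulum, stood at 853, 313 and 784 CPM in WT tunicamycin samples 1 to 3, against 196, 210 and 252 CPM in WT vehicle samples 1 to 3. For Ddit3, which encodes the stress transcription factor CHOP, WT tunicamycin samples 1 to 3 held 26.2, 1.29 and 20.3 CPM. WT vehicle samples 1 to 3 held 1.2, 0.64 and 1.89 CPM of Ddit3, so WT tunicamycin 2 lay within the vehicle range. The WT tunicamycin samples with high Hspa5 and Ddit3 were therefore 1 and 3, while those with low Fabp1 and Fabp2 were 1 and 2. The share of reads that did not map was 31.8% in WT tunicamycin 3, against 26% and 27.4% in WT tunicamycin 1 and 2, and 34.9%, 26.7% and 33.3% in WT vehicle samples 1 to 3. In WT tunicamycin samples 1 to 3, summed markers of some other cells also followed that split, and others did not. Sinusoidal endothelium markers stood at 71.9, 74.8 and 76.4 CPM, and stellate cell and fibroblast markers at 98.1, 120 and 116 CPM, without that split. Hepatocyte markers, at 12800, 22600 and 17900 CPM, did not show it either. Most of the hepatocyte sum was Alb, with a mean of 14500 CPM in WT tunicamycin, so it says little of the other hepatocyte markers. Monocyte-derived macrophage markers (6 genes) stood at 37.6, 27.2 and 6.93 CPM, Kupffer cell and macrophage markers (9 genes) at 78.9, 68.3 and 54.2 CPM, and bile duct markers (5 genes) at 6.87, 6.15 and 2.62 CPM. Most of the monocyte-derived sum was a single gene, Spp1, with a mean of 22.4 CPM in WT tunicamycin. Most of the bile duct sum was Sox9, with a mean of 4.5 CPM there. In WT vehicle the monocyte-derived, Kupffer and bile duct sums were 5.1 to 9.92, 49 to 58.8 and 2.15 to 4.22 CPM. Gpnmb, a monocyte-derived marker, and Cftr, a bile duct marker, were at 0 in both WT groups. No marker of these lists was at 0 in every sample of the study. The part of unmapped reads and of other cells in the Fabp1 and Fabp2 values was not tested.

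**Figure D1:**
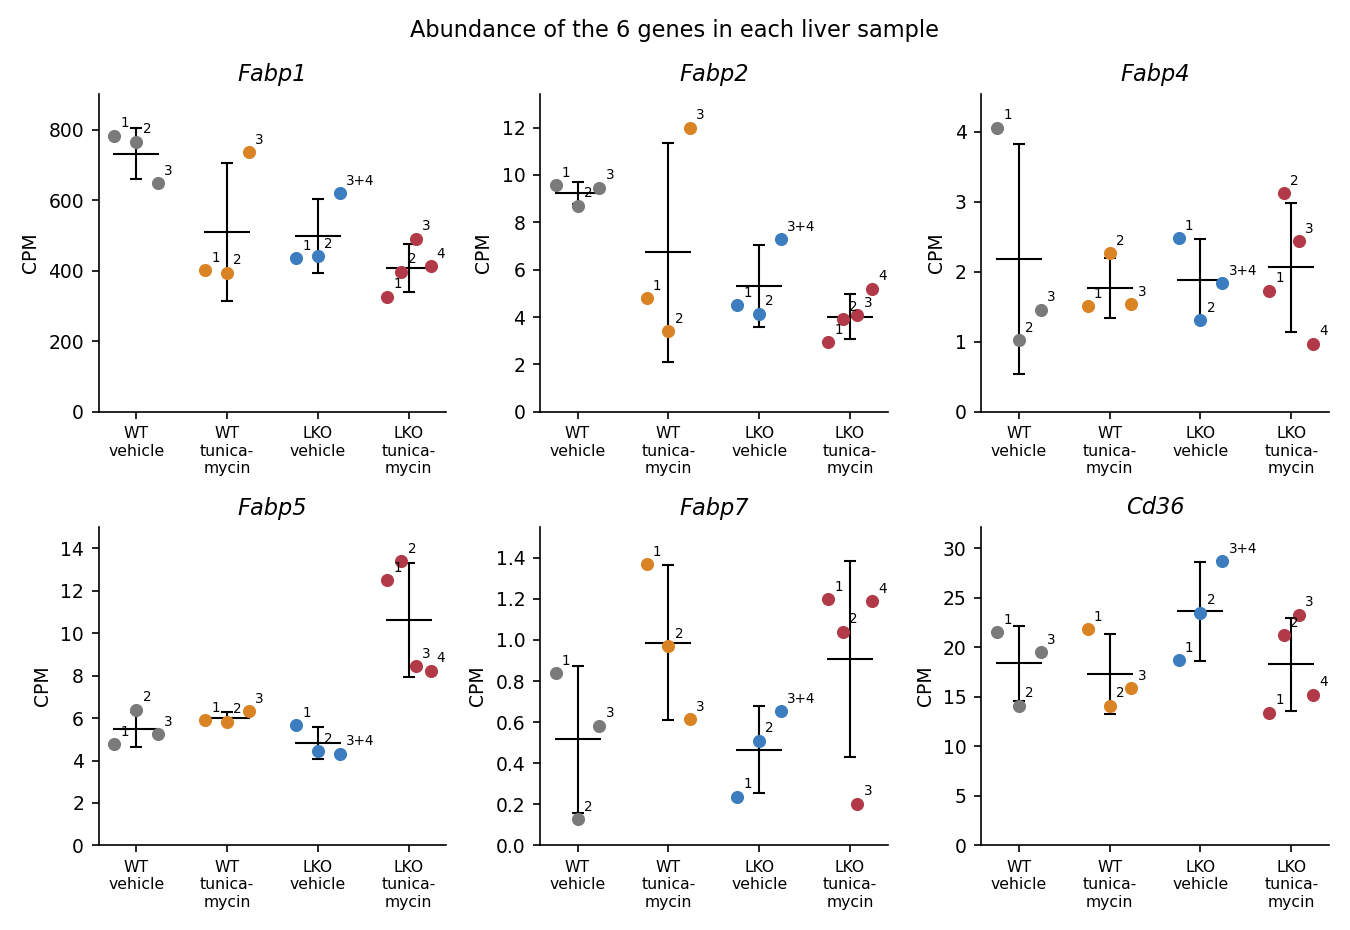
Each point is 1 of 13 liver samples, with its sample number, in CPM on a linear axis that starts at 0, by genotype and treatment. Horizontal lines are group means and bars are 1 SD. Fabp1 and Fabp2 share the high point of WT tunicamycin 3, and all 4 LKO tunicamycin samples of Fabp5 (8.24 to 13.4 CPM) lie above every other sample of that gene. The share of all genes with such a pattern was not counted.

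The pattern of Fabp1 and Fabp2 over the samples was shared. The 5 samples with the most Fabp1 were the 3 WT vehicle samples, WT tunicamycin 3 and LKO vehicle 3 with 4, and the same 5 samples had the most Fabp2. From 61.3 to 121 Fabp1 reads were counted for each Fabp2 read, so the ratio itself varied less than either gene. The genes lie on different chromosomes. Fabp1 has 4 exons at chr6:71199879-71205034 (plus strand), and Fabp2 has 4 exons at chr3:122895072-122899506 (plus strand), in the mouse build GRCm38.p6. No stretch of 50 bases of either transcript recurred in a transcript of another gene.

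**Figure D2:**
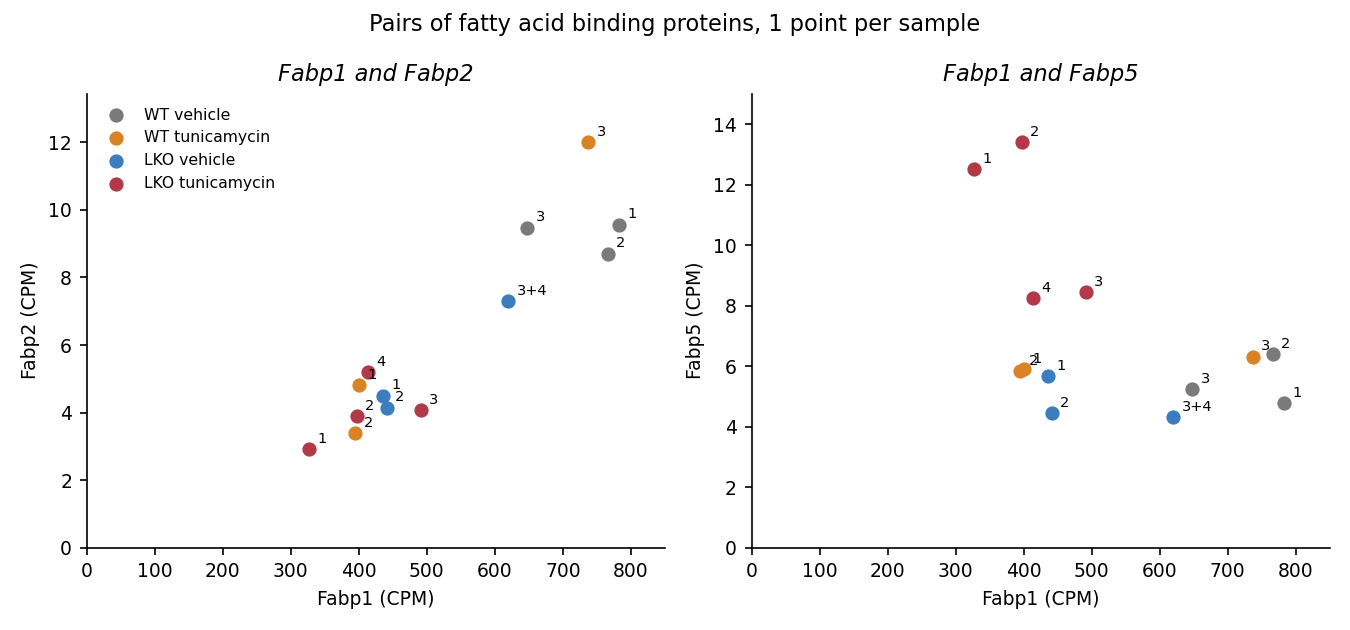
Each point is 1 of 13 samples, coloured by group and marked with its sample number, with Fabp1 in CPM on the x axis and Fabp2 (left) or Fabp5 (right) in CPM on the y axis. Fabp1 and Fabp2 go up together across groups, and WT tunicamycin 3 (737 and 12 CPM) lies with the WT vehicle samples. The Fabp5 values of the LKO tunicamycin samples lie apart at Fabp1 levels that samples of other groups also have.

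The bases before the start of Fabp1 and Fabp2 are shown because these genes varied together and because receptors of the PPAR family are known to act on genes of this kind. RefSeq promoters (GRCm38.p6) were given for 4 of the 6 genes, Fabp1, Fabp2, Fabp7 and Cd36. The 250 bases before each start were searched on both strands for AGNNCANAGNNCA, the shape of a direct repeat with 1 base between its parts, which PPAR with RXR and HNF4A bind. They were also searched on the given strand for TATAAA. Capitals mark the matches below, which lie on chr6:71199629-71199878 (plus strand) for Fabp1 and on chr3:122894822-122895071 (plus strand) for Fabp2.
Fabp1: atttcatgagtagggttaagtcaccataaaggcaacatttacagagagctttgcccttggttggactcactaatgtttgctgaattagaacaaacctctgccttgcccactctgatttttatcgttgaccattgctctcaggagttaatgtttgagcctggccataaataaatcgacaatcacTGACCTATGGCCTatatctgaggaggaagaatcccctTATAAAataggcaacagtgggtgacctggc
Fabp2: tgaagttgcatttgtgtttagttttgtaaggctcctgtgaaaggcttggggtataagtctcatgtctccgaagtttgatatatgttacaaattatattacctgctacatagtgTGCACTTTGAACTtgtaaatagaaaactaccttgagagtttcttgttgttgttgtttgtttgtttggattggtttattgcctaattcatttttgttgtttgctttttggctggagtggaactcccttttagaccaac
In Fabp1 the repeat shape, TGACCTATGGCCT on the strand shown, lay 67 to 55 bases before the start, and a TATAAA lay 30 to 25 bases before it. In Fabp2 the repeat shape, TGCACTTTGAACT on the strand shown, lay 137 to 125 bases before the start, with no TATAAA. Neither pattern was found in these windows of Fabp7 and Cd36. The Cd36 window, chr5:17835897-17836146 (minus strand), lies before a start inside the gene's span, and the bases before its outermost start were not searched. The repeat shape occurs in 764 of 32851 RefSeq windows of the same length (2.33%) and TATAAA in 7.59%. The repeat pattern was chosen after the sequences had been seen. A match is a stretch of letters and not a measured binding site.

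Fabp5 showed the clearest difference of the 6 genes, and it was found after tunicamycin in LKO livers. It stood at 4.78, 6.4 and 5.24 CPM in WT vehicle samples 1 to 3, and at 5.91, 5.83 and 6.32 CPM in WT tunicamycin samples 1 to 3. It stood at 5.68, 4.45 and 4.32 CPM in LKO vehicle samples 1, 2 and 3 with 4, and at 12.5, 13.4, 8.44 and 8.24 CPM in LKO tunicamycin samples 1 to 4. All 4 LKO tunicamycin samples lay above all 9 others, and LKO tunicamycin 1 and 2 lay above 3 and 4. The share of all genes set apart from all 9 others in this way was not counted.

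The means of Fabp5 were 5.47 ± 0.832 CPM (SD, n = 3) in WT vehicle, 6.02 ± 0.263 CPM (n = 3) in WT tunicamycin, 4.82 ± 0.749 CPM (n = 3) in LKO vehicle and 10.6 ± 2.68 CPM (n = 4) in LKO tunicamycin. In LKO, Fabp5 rose with tunicamycin to 2.21 times the vehicle mean, a log2 fold change of 1.15 ± 0.19 (SE, 95% interval 0.76 to 1.55). The edgeR adjusted p was 0.0346, the third smallest of all genes in that comparison. Fabp5 was 1 of the 3 genes called among 9644 there (0.0311%), and 5.03% of genes had all tunicamycin samples above all vehicle samples. Since this value was known when the genes were chosen, it is no independent test.

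The call of Fabp5 in LKO was close to the threshold. It was lost when only the 2 groups compared were fitted (edgeR adjusted p of 0.0636), in the deposited FPKM values (limma adjusted p of 0.205 to 0.285), and in 9 of 13 fits that left out 1 sample. Those samples were WT vehicle 1 and 3, WT tunicamycin 2, each LKO vehicle sample, and LKO tunicamycin 1, 2 and 3, with edgeR adjusted p up to 0.259, reached without LKO vehicle 3 with 4. The log2 fold change stayed between 0.84 and 1.26 in all of these fits.

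In WT, Fabp5 had a log2 fold change of 0.14 ± 0.23 (SE, 95% interval -0.34 to 0.61; edgeR adjusted p of 0.833), which turned to -0.05 with total count scaling and to between -0.36 and -0.28 in FPKM. The difference between the tunicamycin effects of the genotypes was 1.02 ± 0.29 for Fabp5 (95% interval 0.4 to 1.63), with an edgeR adjusted p of 0.937. No gene passed for that difference (0%), although 474 had an unadjusted p under 0.05 and Fabp5 was among them (p of 0.00297). Other tools and settings called up to 1 gene there, and fits without 1 sample up to 2 genes, reached without WT tunicamycin 3. A larger change of Fabp5 in LKO than in WT is thus not shown over all genes tested.

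After tunicamycin, Fabp5 in LKO was 1.77 times WT by the ratio of means, and all LKO samples lay above all WT samples, as for 6.34% of genes. Its log2 fold change between the genotypes was 0.81 ± 0.2 (SE, 95% interval 0.39 to 1.22) at an edgeR adjusted p of 0.0618, while 0.861% of genes passed in that comparison. It passed in 6 of 26 alternatives, among them DESeq2 (adjusted p of 0.0434) and edgeR without a filter on low counts (adjusted p of 0.0112). With vehicle, LKO against WT gave -0.21 ± 0.22 for Fabp5, with an edgeR adjusted p of 0.849.

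**Figure D3:**
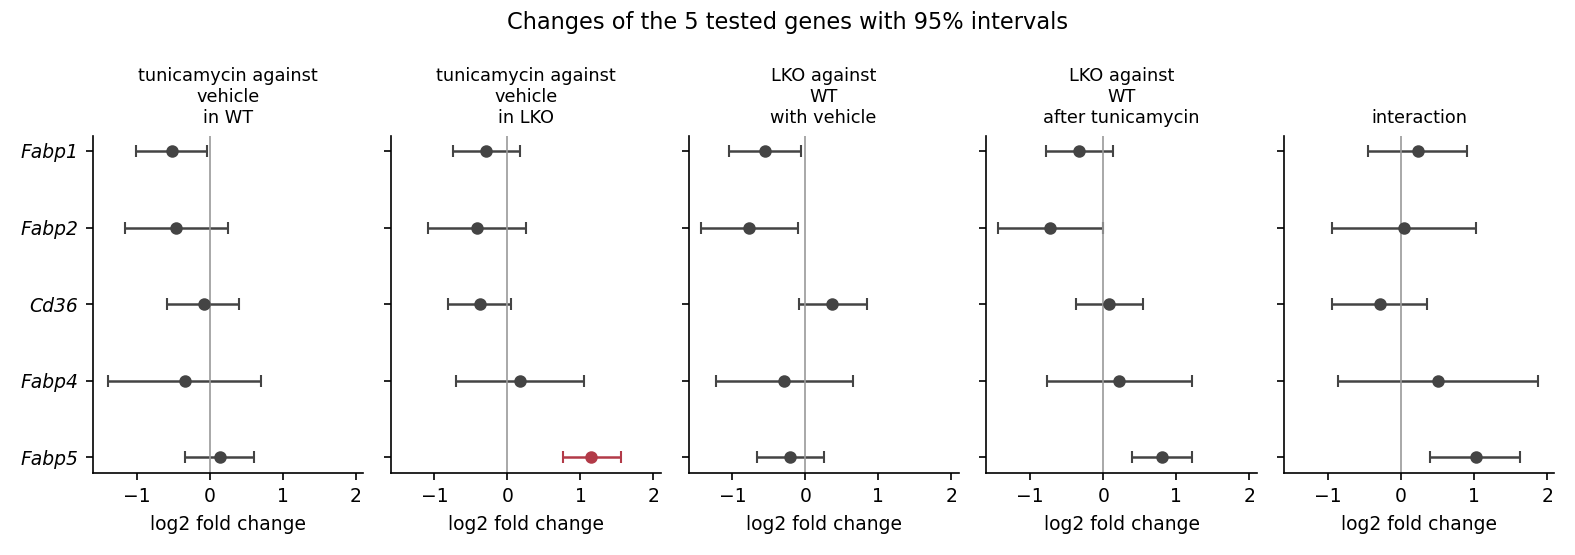
Points are log2 fold changes from edgeR and bars their 95% intervals, for the 5 tested genes in each of the 5 contrasts; red marks the value that passed over all genes. Fabp5 in LKO (1.15, from 0.76 to 1.55) is the red point. The intervals of Fabp4, the gene with the fewest reads, are the widest in each panel.

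Fabp5 is a 4-exon gene at chr3:10012585-10016610 (plus strand, GRCm38.p6). Its counts are uncertain in 1 respect: of the 938 stretches of 50 bases in its principal transcript, 198 also occur in transcripts of 5 other loci. These copies were not analysed here. Reads in shared stretches can be lost to, or gained from, such copies. From 36 to 103 reads lay behind each sample's value.

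Macrophages express Fabp5, so markers of other liver cells are given beside it. The 9 Kupffer cell and macrophage markers summed to 61.1, 120, 63.8 and 107 CPM in LKO tunicamycin samples 1 to 4, and to between 37.7 and 64.9 CPM in LKO vehicle. In LKO, all 9 had a positive log2 fold change with tunicamycin (median 0.56), 6 had an unadjusted edgeR p under 0.05 (12.2% of all genes did), and 0 of 9 were called over all genes. The 6 markers of monocyte-derived macrophages summed to 107, 60.2, 36.3 and 44.3 CPM in the same 4 samples, and to between 13.8 and 54 CPM in LKO vehicle. Spp1 alone made up most of this sum, with means of 58.1 CPM in LKO tunicamycin and 32.6 CPM in LKO vehicle. No defining marker of either list was at 0 in every sample of the study, but Gpnmb, a monocyte-derived marker, was at 0 in both WT groups. In WT the Kupffer sum was 49 to 58.8 CPM with vehicle and 54.2 to 78.9 CPM with tunicamycin, and the monocyte-derived sum was 5.1 to 9.92 CPM and 6.93 to 37.6 CPM. Hspa5 stood at 228, 142, 181 and 207 CPM in LKO tunicamycin samples 1 to 4. The part of macrophage content in the Fabp5 values was not tested. In bulk liver, fewer or more cells of a type and less or more RNA per cell cannot be told apart.

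Fabp4 and Fabp7 had few reads, and no change of either was detectable at this depth. Fabp4, with 8 to 34 reads per sample, stood at 4.06, 1.02 and 1.46 CPM in WT vehicle samples 1 to 3, and at 1.51, 2.27 and 1.54 CPM in WT tunicamycin samples 1 to 3. It stood at 2.48, 1.31 and 1.84 CPM in LKO vehicle samples 1, 2 and 3 with 4, and at 1.73, 3.12, 2.44 and 0.976 CPM in LKO tunicamycin samples 1 to 4. All 4 groups overlapped, and WT vehicle 1 was the highest sample. The 5 adipocyte markers summed to 0.717 CPM in that sample, to 0.137 CPM in WT tunicamycin 1 and to 0 in the other 11. Their part in the Fabp4 value was not tested.

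The log2 fold change of Fabp4 with tunicamycin was -0.34 ± 0.5 (SE) in WT and 0.17 ± 0.41 in LKO, with edgeR adjusted p of 0.809 and 0.916. LKO against WT gave -0.29 ± 0.45 with vehicle and 0.22 ± 0.47 after tunicamycin, with edgeR adjusted p of 0.921 and 0.868. Leaving out WT vehicle 1 turned the WT and the vehicle value positive, to 0.49 and 0.55. Fabp4 (chr3:10204342-10208616, minus strand, 4 exons, GRCm38.p6) lies 188 kb from Fabp5, in a run of 5 binding protein genes that spans 289 kb. Of the other 3, Fabp9 had no read and Pmp2 at most 1 in any sample. Fabp12 had at most 2 reads in a sample, all of them in LKO tunicamycin (0.144 ± 0.0413 CPM, SD, n = 4), and was not tested. So few reads show no difference between groups, and the share of all genes with reads in only 1 group was not counted. Of the 2 genes of the run that were tested, edgeR called Fabp5 in 1 contrast and Fabp4 in none.

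Fabp7 had 1 to 11 reads per sample and was not tested. It stood at 0.837, 0.128 and 0.583 CPM in WT vehicle samples 1 to 3, and at 1.37, 0.971 and 0.616 CPM in WT tunicamycin samples 1 to 3. LKO vehicle samples 1, 2 and 3 with 4 held 0.237, 0.51 and 0.652 CPM, and LKO tunicamycin samples 1 to 4 held 1.2, 1.04, 0.203 and 1.19 CPM. The groups overlapped within each genotype and each treatment. Without a filter on low counts, edgeR gave 0.9 ± 0.61 (SE, log2) for tunicamycin in WT and 0.79 ± 0.51 in LKO, with adjusted p of 0.677 and 0.73. Fabp7 has 4 exons at chr10:57784923-57788450 (plus strand, GRCm38.p6).

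The group means of Cd36 lay closer together than its samples. It stood at 21.5, 14.1 and 19.5 CPM in WT vehicle samples 1 to 3, and at 21.8, 14.1 and 15.9 CPM in WT tunicamycin samples 1 to 3. It stood at 18.7, 23.5 and 28.7 CPM in LKO vehicle samples 1, 2 and 3 with 4, and at 13.4, 21.2, 23.3 and 15.2 CPM in LKO tunicamycin samples 1 to 4. The highest value was that of LKO vehicle 3 with 4, and every pair of groups overlapped. From 87 to 484 reads lay behind these values, more than for Fabp2, Fabp4, Fabp5 or Fabp7.

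The mean level of Cd36 was 18.4 ± 3.85 CPM (SD, n = 3) in WT vehicle, 17.3 ± 4.06 CPM (n = 3) in WT tunicamycin, 23.6 ± 4.99 CPM (n = 3) in LKO vehicle and 18.3 ± 4.71 CPM (n = 4) in LKO tunicamycin. Tunicamycin against vehicle gave a log2 fold change of -0.08 ± 0.23 (SE) in WT and -0.38 ± 0.2 in LKO, with edgeR adjusted p of 0.905 and 0.485. LKO against WT gave 0.37 ± 0.22 with vehicle and 0.08 ± 0.22 after tunicamycin, with edgeR adjusted p of 0.689 and 0.903. The 8 markers of sinusoidal endothelium, cells that carry CD36, summed to 93 CPM in LKO vehicle 3 with 4, the highest of all samples, and to between 63.2 and 84.7 CPM in the others. LKO vehicle 2 had the lowest sum, 63.2 CPM, and the second-highest Cd36, 23.5 CPM. LKO tunicamycin 1 had a sum of 82.3 CPM and the lowest Cd36, 13.4 CPM. Their part in the Cd36 values was not tested. Cd36 has 15 exons in its principal transcript and lies at chr5:17781690-17888959 (minus strand, GRCm38.p6).

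Levels of different genes were compared in the deposited FPKM, which take transcript length into account. Over the 13 samples Fabp1 averaged 461 ± 131 FPKM (SD), Fabp5 4.21 ± 2.01, Fabp2 3.34 ± 1.48, Cd36 2.05 ± 0.557, Fabp4 1.49 ± 0.73 and Fabp7 0.36 ± 0.239 FPKM. Fabp1 exceeded Fabp5 in every sample, by 37.9 to 212 times. Fabp4 exceeded Fabp7 in 13 of 13 samples, and Fabp2 exceeded Cd36, and Cd36 exceeded Fabp4, in 11 of 13 each. The neighbours Fabp5 and Fabp2 had no fixed order. Fabp5 was above Fabp2 in 0 of 3 WT vehicle samples, 2 of 3 WT tunicamycin, 2 of 3 LKO vehicle and 4 of 4 LKO tunicamycin samples. In reads, Fabp5 made up 1.59 to 3.49% of the reads of all 6 genes in LKO tunicamycin and 0.581 to 1.38% in the other groups, while Fabp1 made up 90.3 to 96.2% throughout.

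Across contrasts, the 5 tested members did not move as a set. With tunicamycin in WT, edgeR called 0 of 5 (0.363% of all genes), and Fabp1 alone had an unadjusted p under 0.05 (0.0405). With tunicamycin in LKO it called 1 of 5, Fabp5 (0.0311% of all genes). Between the genotypes with vehicle it called 0 of 5 (0.0415% of all genes), with unadjusted p of 0.0304 for Fabp1 and 0.0269 for Fabp2. Between the genotypes after tunicamycin it called 0 of 5 (0.861% of all genes), with unadjusted p of 0.00076 for Fabp5 and 0.0475 for Fabp2, and DESeq2 called 1, Fabp5. Fabp1 and Fabp2 had negative log2 fold changes in all 4 group comparisons, which share samples, but between the genotypes after tunicamycin, without WT tunicamycin 3, Fabp1 was at 0.03 and Fabp2 at -0.03. The signs of Fabp4, Fabp5 and Cd36 differed between comparisons.

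Other genes of fatty acid handling were described as lists, by counts and by the median log2 fold change of the members tested, beside medians of all genes between -0.012 and 0.014. Of 24 genes of fatty acid uptake and activation, 20 were tested, edgeR called 0 in any contrast, and 6, 5, 2 and 5 had an unadjusted p under 0.05 in the 4 group comparisons below. Of all genes tested, 14.8%, 12.2%, 8.18% and 15.8% had such a p, in the order of the medians that follow. Their medians were -0.23 for tunicamycin in WT, -0.12 in LKO, -0.11 between the genotypes with vehicle and -0.01 between them after tunicamycin. The most abundant was Scp2, a carrier of sterols and fatty acids, at 592 CPM on average, followed by the acyl-CoA synthetase Slc27a2 at 327 CPM, the long-chain acyl-CoA synthetase Acsl1 at 215 CPM and the acyl-CoA binding protein Dbi at 163 CPM. Their log2 fold changes with tunicamycin in WT were -0.34 for Scp2, -0.11 for Slc27a2, -0.4 for Acsl1 and -0.01 for Dbi, with edgeR adjusted p of 0.317 or more.

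Of 20 lipid droplet genes, 15 were tested and edgeR called 0 in any contrast. Their medians were -0.23, -0.28, -0.06 and -0.09 in the same order, and 2, 5, 1 and 3 of them had an unadjusted p under 0.05. Dgat2, which makes triglycerides, averaged 76.9 CPM, Plin2, a droplet coat protein, 34.2 CPM, Cideb 32.4 CPM and the lipase Mgll 21 CPM. With tunicamycin in LKO, their log2 fold changes were -0.32 for Dgat2, 0.37 for Plin2, -0.12 for Cideb and -0.41 for Mgll, with edgeR adjusted p of 0.317 or more. Of 19 circadian clock genes, which set daily rhythms of many liver genes, 17 were tested and edgeR called 0. Their medians were -0.45, -0.29, -0.09 and 0.02, and 10, 9, 0 and 6 of them had an unadjusted p under 0.05, beside the same 14.8%, 12.2%, 8.18% and 15.8% of all genes. The clock genes with the most reads were Rora, Nr1d2, Tef and Bhlhe40, and Tef had -0.4 in WT and -0.41 in LKO with tunicamycin.

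Among 15 transcription factors known to act on these genes, all were tested and 2 were called after tunicamycin, both lower in LKO, against 0.55% of all genes called in that direction. In the other contrasts edgeR called 0, with 3, 3 and 0 at an unadjusted p under 0.05 for tunicamycin in WT, for tunicamycin in LKO and between the genotypes with vehicle. Hnf4a, a receptor that maintains hepatocyte gene expression, stood at 183, 173 and 164 CPM in WT tunicamycin samples 1 to 3 and at 121, 119, 114 and 122 CPM in LKO tunicamycin samples 1 to 4. The groups did not overlap, as for 6.58% of all genes in that direction. The edgeR log2 fold change of Hnf4a was -0.54 ± 0.12 (SE), at an adjusted p of 0.0405. Nr0b2, the corepressor SHP, stood at 5.08, 3.4 and 2.77 CPM in WT and at 2, 1.17, 1.32 and 0.867 CPM in LKO after tunicamycin. These values rested on 8 to 37 reads each. They did not overlap between the genotypes either, and the log2 fold change of Nr0b2 was -1.51 ± 0.32 with an edgeR adjusted p of 0.0405. Hnf4a was no longer called in 16 of 26 alternatives and Nr0b2 in 9 of 26. The highest adjusted p of each was reached without WT tunicamycin 1, at 0.171 for Hnf4a and 0.199 for Nr0b2. Ppara, the main fatty acid receptor of liver, averaged 95.7 CPM and had -0.52 in WT and -0.37 in LKO with tunicamycin, with edgeR adjusted p of 0.162 and 0.366. Rxra averaged 90.5 CPM and Cebpa 34.3 CPM, and neither was called.

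**Figure D4:**
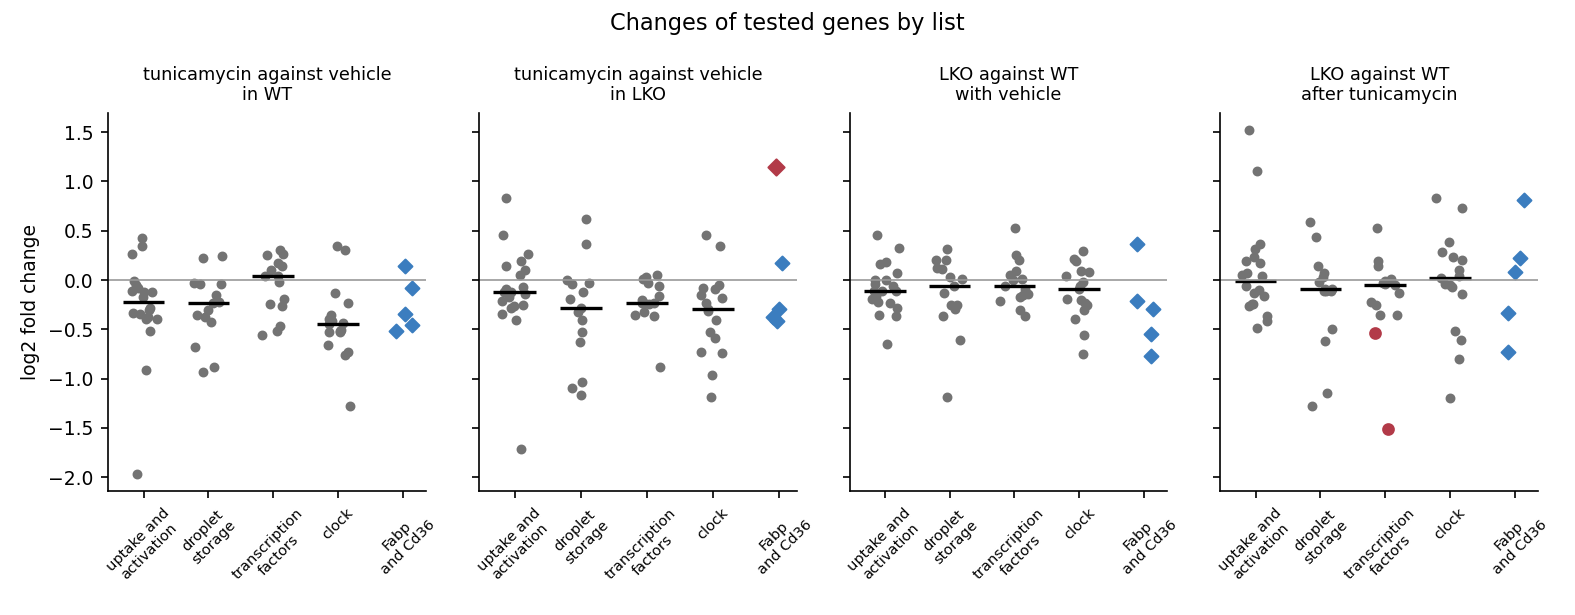
Each grey point is a tested gene of a list and each diamond 1 of the 5 tested fatty acid binding protein and Cd36 genes, as edgeR log2 fold change in 4 comparisons; black lines are list medians and red marks genes called over all genes. The only red diamond is Fabp5 in LKO with tunicamycin (1.15), and the red points after tunicamycin are Hnf4a (-0.54) and Nr0b2 (-1.51).

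Among other fatty acid binding protein genes, Fabp3 had at most 1 read and Fabp6 had none. Markers of the tissue were as labelled: 6 hepatocyte markers summed to between 12800 and 22600 CPM in all samples, although 1 of them, Ass1, had at most 1 read. Of 6 enterocyte markers, Cdx1, Cdx2, Alpi, Sis and Lct had no read in any sample, and the sixth, Vil1, reached at most 0.13 CPM. The source of the Fabp2 reads was not tested.

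The genes whose log2 CPM was most like that of a member were sought by Pearson r over the 13 samples, among 5990 other genes whose mean log2 CPM reached 2. All points share libraries and groups, and no p is given. Fabp1 was most like Aldh9a1 (r of 0.945), Decr2 (0.941), a reductase of peroxisomal fatty acid oxidation, and Uqcrfs1 (0.931), a subunit of respiratory complex III. Fabp2 was among others most like Sod1 (0.974) and Ndufb9 (0.949), a subunit of complex I. On the same measure Fabp1 and Fabp2 had 0.94 with each other. Fabp5 was most like Rps12, Gabbr2 and Tpm3, with 0.83 each. Cd36 had Smg1 (0.786), Ndfip2 (0.741) and Cblb (0.733), and Fabp4 had Ndrg3 (0.753), Kdm4c (0.722) and Eed (0.72).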

How the data were processed

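Polyadenylated liver RNA was sequenced in 14 libraries, made with Bio-Rad SEQuoia indexes and an Element Adept circularisation kit, per the labels' protocols. The submitters' processing notes name Trimmomatic, STAR, Cufflinks and the build mm10, and no versions. Counts were deposited as STAR gene counts of whole reads, per the file headers. The column of the gene's strand, which held 99.5 to 99.6% of stranded reads, was used. The deposited FPKM values, per the file headers in the layout of Cufflinks tables, served only for levels between genes and as an alternative. Every per-sample column was used (0 left out).

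Groups were taken from the titles. LKO vehicle libraries 3 and 4 had a chi-square of 1.12 per degree of freedom over genes, against 3.38 to 25.9 for 17 other pairs within groups, and were summed. Counts were fitted with edgeR 4.0.16 in R 4.3.3 (TMM, filterByExpr by group, quasi-likelihood, 1 mean per group; 9 residual degrees of freedom, common biological coefficient of variation 0.155). Benjamini-Hochberg adjustment ran over all 9644 genes, with a call below 0.05. The 5 contrasts were tunicamycin against vehicle in each genotype, LKO against WT in each treatment, and the interaction. CPM used TMM library sizes, and a prior count of 2 was added for log2 values. Alternatives used DESeq2 1.42.0, limma 3.58.1 on log2(FPKM + 1), other scalings and filters, and fits without each sample. The scripts were tested on simulated data. Reads carry no molecular identifiers, so the precision was taken from the spread between samples.

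The members, lists and tests were chosen with earlier results of these data known. Named were all 6 members, the 4 most abundant genes of each list with every called gene, marker genes without reads, and the 3 genes most like each member. A few results that this rule names are not reported here.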

Additional observations from a re-analysis of the deposited data

Results flagged for a closer look

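Fabp7 in LKO tunicamycin 3 stood at 0.203 CPM, apart from the 1.2, 1.04 and 1.19 CPM of LKO tunicamycin samples 1, 2 and 4, and its gap to the nearest of them took most of the range of the group. The value rests on 2 reads. The spread of the 6 genes was checked in the 1 group of 4 samples, 6 checks in all, and this was the only one beyond Dixon's limit, which chance passes in about 1 of 20 such checks.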

How the results depend on the processing

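The LKO call of Fabp5 depended on the fit. The number of the 5 members called there was 1, and 0 with only the 2 groups compared and in all 4 FPKM settings; it was 0 to 1 over fits without 1 sample. For tunicamycin in WT, 0 were called, and 0 to 2 without 1 sample, where 2 stands for Fabp1 and Fabp2 without WT tunicamycin 3. After tunicamycin, 0 were called between the genotypes, and 1, Fabp5, with DESeq2, with total count scaling, without a filter on low counts, in both FPKM settings with a filter, and with the replicate block on 14 libraries. With vehicle and for the interaction, 0 members were called in every fit. DESeq2 gave no adjusted p for Fabp5 in LKO (log2 fold change 1.16 ± 0.23).

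The values below do not settle whether replicate numbers pair the samples. Same-numbered samples had correlations of -0.12 to 0.12 in their deviations from group means, and a sample was closest to its own number in 0 of 3 cases for tunicamycin in WT, 2 of 4 in LKO, 3 of 3 with vehicle and 2 of 3 after tunicamycin. The replicate block was fitted on 14 libraries, with LKO vehicle 3 and 4 apart. In LKO the adjusted p of Fabp5 was 0.00554 with the block and 0.0163 on 14 libraries without it, and the genes called were 72 and 5. Between the genotypes after tunicamycin it was 0.0336 with the block and 0.0506 without it. No other call of a member changed.

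Signs turned for genes with few reads or small changes, none of them called. With tunicamycin in WT, Fabp5 was at -0.05 with total count scaling, -0.36 for log2(FPKM + 0.1), and -0.28 for log2(FPKM + 1) with a filter, without one, and without the LKO vehicle 2 column. That setting was added after the data had been seen, because this column lists Rn45s at 0; it gave -0.03 for Fabp4 in LKO and 0.08 between the genotypes with vehicle, where log2(FPKM + 0.1) gave 0.07. Fabp2 was at -0.03 for the interaction with 14 libraries. Without 1 sample, Fabp4 ran from -0.7 to 0.49 in WT, -0.07 to 0.42 in LKO, -0.64 to 0.55 with vehicle, -0.02 to 0.47 after tunicamycin and -0.32 to 0.87 for the interaction. Cd36 ran from -0.29 to 0.04 in WT and -0.06 to 0.29 after tunicamycin, Fabp1 from -0.48 to 0.03 after tunicamycin, and Fabp2 from -0.26 to 0.74 for the interaction. Total count scaling moved the median of all genes to -0.18 in WT and 0.14 between the genotypes after tunicamycin. The causes were not tested. The count of all genes called ran from 0 to 615 in WT, 0 to 153 in LKO, 0 to 84 with vehicle, 0 to 261 after tunicamycin and 0 to 2 for the interaction.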
